A study of Mus musculus with 32 samples.

Results

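The genes described here are 10 receptor tyrosine kinases that sense growth factors: the EGF receptor genes Egfr, Erbb2 and Erbb3, the FGF receptor genes Fgfr1, Fgfr2 and Fgfr3, the PDGF receptor gene Pdgfra, the IGF and insulin receptor genes Igf1r and Insr, and the BDNF receptor gene Ntrk2. They were taken by symbol, 10 of the 38740 symbols in the table. RNA had been sequenced from the Subventricular Zone, part of the mouse forebrain neurogenic zone, at postnatal day 21, from 28 single cells and from 4 pools of 10 cells. The labels give no animal, strain, sort, genotype or treatment, and nothing sets the cells apart from the pools but the cell number. The 28 cells therefore count as 1 sample of cells, no p-value was made from them, and no test of cells against pools was possible.

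A receptor tyrosine kinase spans the cell membrane, works as a pair, binds its ligand outside and phosphorylates tyrosines inside the cell. This starts the RAS and MAP kinase pathway and the PI3K and AKT pathway. EGF and FGF are the mitogens used to grow neural stem cells as spheres, and EGF receptor marks activated stem cells and transit-amplifying cells of the subventricular zone. FGF receptors act in astrocytes, stem cells and the oligodendrocyte lineage, PDGF receptor alpha is a known marker of oligodendrocyte precursors, and the insulin and IGF receptors act in nearly all cells, vessels included.

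Values are FPKM (fragments per kilobase of transcript and per fixed number of mapped fragments), which adjusts for transcript length. How far levels of different genes can be compared beyond that was not tested. A gene was called found in a library at FPKM of at least 1. Depth could be read from the table only roughly: in 18 of the 32 libraries a step of 1 fragment stood out and put the depth between 6.17 M and 20.9 M fragments. At the lowest of these depths, FPKM of 1 would stand for about 26.2 fragments of Fgfr3, the shortest of the 10 by its longest coding transcript, and 70.3 of Igf1r, the longest. An exact 0 can be a failed estimate, so such values are described as listed at 0. The cells had 2107 to 10169 genes found, and the pools 10478 to 12870.

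Each cell was described by the marker list with the highest mean log2(FPKM + 1), and none of the receptors is in a list. Endothelial markers led 8 cells (1, 2, 3, 6, 7, 8, 16 and 17), with 10 to 12 of 12 markers found in each. Oligodendrocyte markers led cells 4, 12 and 13, ependymal cilia markers cells 9, 10 and 15, astrocyte markers cells 11 and 14, and choroid plexus markers cell 5. Microglia markers led cells 18 to 21 and neuroblast markers cells 22 to 28. The lead in cell 21 was narrow, with a mean of 4.13 for microglia and 3.86 for neuroblast markers, and the cell was led by neuroblast markers (3.38 against 0.943) once values under 2% of the highest in its library set, described next, were put at 0. Cell 3 had 9 of 12 microglia markers, with a mean of 5.39, beside 12 of 12 endothelial markers. No cell was led by oligodendrocyte precursor, transit-amplifying, mural, fibroblast or mature neuron markers, and at most 2 of 8 transit-amplifying and 2 of 10 mature neuron markers were found in any cell. The astrocyte list cannot tell astrocytes from astrocyte-like stem cells.

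Cells 18 to 22 and cells 23 to 28 were 2 sets of libraries that stood apart. Genes with at least 500 FPKM in 1 cell of a set and under 5% of that in the others had values above 0 in 98.7% and 97.6% of the remaining cells, where the median value was 0.343% and 0.292% of the highest. In the 17 cells outside the sets the share was 15.1%. All cells led by microglia or neuroblast markers are in these sets, so cell kind and library set cannot be told apart for them. Counts of cells per receptor, counts of receptors per cell and correlations are therefore also given for the 17 cells outside the sets where these differ. Counts for other genes, such as ligands and pathway genes, are over all 28 cells and can include cells of the sets. Some of these are also given with values under 2% of the highest in the set put at 0.

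Promoters of 7 of the 10 receptors are in the RefSeq table (GRCm38.p6), each with 250 bases before and 50 after the start. The 3 printed first belong to the receptors of the 2 pairs most alike in level across the cells, Fgfr2 with Ntrk2 and Fgfr3 with Ntrk2, and the fourth to Igf1r, which was found mainly in cells led by endothelial markers. Capitals mark motifs found on either strand. The motif GGGCGG is known as the GC box. The motif CCAAT is bound by the factor NF-Y. The motif CAGCTG is an E-box for basic helix-loop-helix factors. The motif ACAATG is a site of the SOX type.
Fgfr2, chr7:130266759-130267058, minus strand: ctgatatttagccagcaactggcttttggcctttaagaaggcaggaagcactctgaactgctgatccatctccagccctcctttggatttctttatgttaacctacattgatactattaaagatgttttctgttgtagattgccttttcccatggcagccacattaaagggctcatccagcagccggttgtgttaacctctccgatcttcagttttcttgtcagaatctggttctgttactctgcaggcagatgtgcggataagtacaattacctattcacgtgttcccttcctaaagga
Fgfr3, chr5:33721474-33721773, plus strand: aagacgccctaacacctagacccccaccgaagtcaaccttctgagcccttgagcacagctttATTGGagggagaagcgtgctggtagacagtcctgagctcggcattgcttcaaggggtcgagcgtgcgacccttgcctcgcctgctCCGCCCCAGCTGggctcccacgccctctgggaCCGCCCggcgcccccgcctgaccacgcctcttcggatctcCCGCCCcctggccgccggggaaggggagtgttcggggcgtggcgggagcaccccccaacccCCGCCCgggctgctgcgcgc
Ntrk2, chr13:58806319-58806618, plus strand: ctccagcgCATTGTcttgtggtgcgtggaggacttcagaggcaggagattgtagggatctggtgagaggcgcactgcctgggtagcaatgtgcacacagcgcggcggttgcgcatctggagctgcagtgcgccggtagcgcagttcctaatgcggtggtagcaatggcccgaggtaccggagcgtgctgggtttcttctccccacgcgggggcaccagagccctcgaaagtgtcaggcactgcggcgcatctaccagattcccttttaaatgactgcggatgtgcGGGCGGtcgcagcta
Igf1r, chr7:67952007-67952306, plus strand: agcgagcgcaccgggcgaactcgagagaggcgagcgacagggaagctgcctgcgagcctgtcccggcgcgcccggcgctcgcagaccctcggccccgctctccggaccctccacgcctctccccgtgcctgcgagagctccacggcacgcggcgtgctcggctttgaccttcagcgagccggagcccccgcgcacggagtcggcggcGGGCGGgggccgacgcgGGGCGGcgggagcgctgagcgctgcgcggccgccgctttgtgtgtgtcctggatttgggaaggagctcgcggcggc
The Fgfr2 window held none of these motifs and had 43.7% G and C, against a median of 52.7% over 32851 promoters. The first Fgfr3 window had 69.7% G and C, 4 GC boxes, 1 CCAAT box and 1 E-box that directly follows a GC box. The Ntrk2 window had 61.3% G and C, 1 GC box and 1 SOX-type site, and the Igf1r window 76% and 2 GC boxes. Over all promoters, 35.7% held a GC box, 37.4% a CCAAT box, 16.3% the E-box and 12.6% the SOX-type site. A TATA box (TATAAA) was searched as well; it was in none of the 4 windows and in 13.6% of all promoters. These matches describe letters only; no binding was measured.

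Over all 10 receptors, 57 of 280 pairs of receptor and cell were found. Insr was found in the most cells, 11 of 28 (39.3%, 95% Clopper-Pearson interval 21.5% to 59.4%), then Ntrk2 in 9, Fgfr1 and Igf1r in 8 each, Fgfr2 in 7, Fgfr3 in 5, Egfr and Erbb3 in 3 each, Erbb2 in 2 and Pdgfra in 1 (3.57%, 0.0904% to 18.3%). In the 17 cells outside the library sets Insr and Fgfr1 were found in 7 cells each and Ntrk2 in 8, and the counts of the other receptors were the same. The intervals cover counting error only, and those of all neighbours in this order overlap. The median receptor was found in 6 cells, beside a median of 5 over all 19783 genes found in at least 1 library, a filter that all 10 receptors passed.

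**Figure D1:**
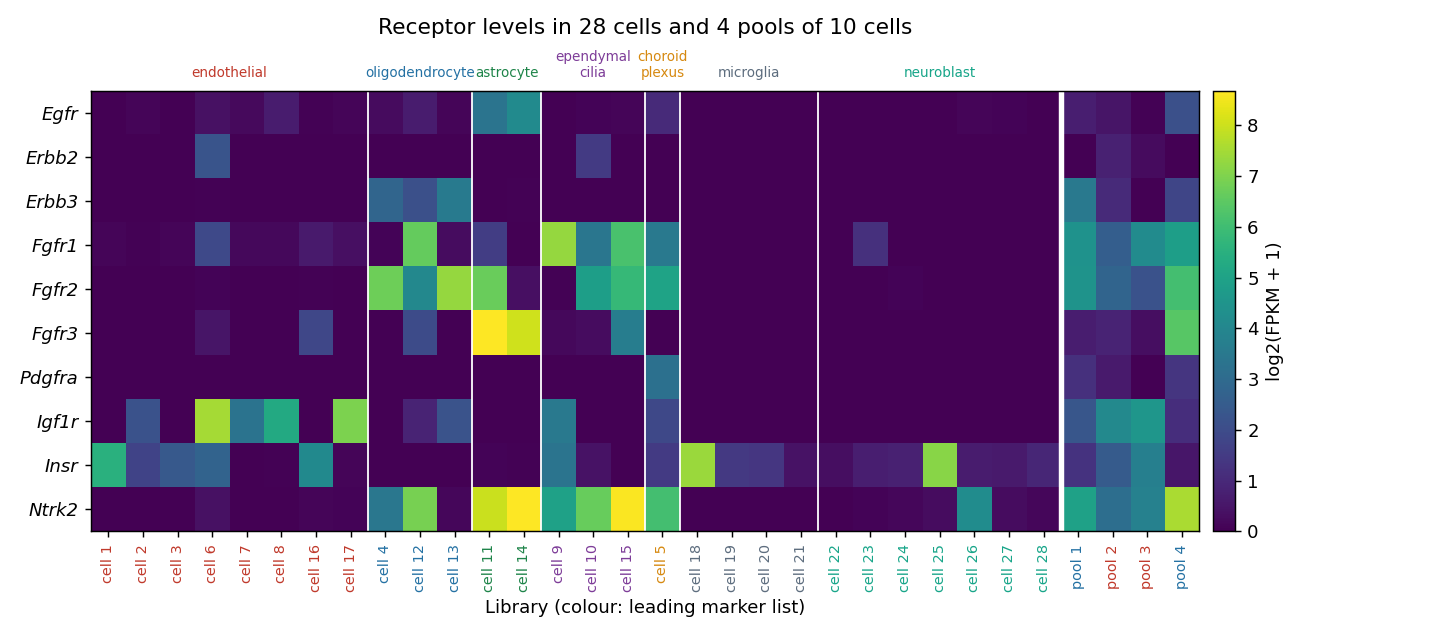
Level of each receptor (rows) in each library (columns) as log2(FPKM + 1), with cells grouped by leading marker list and the 4 pools at the right. Fgfr3 and Egfr are brightest in cells 11 and 14, Erbb3 is above FPKM of 1 only in cells 4, 12 and 13, and Igf1r is brightest in cells 6 and 17.

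Egfr encodes the EGF receptor, the receptor of EGF, TGF alpha and HB-EGF (chromosome 11, 16752203 to 16918158, GRCm38). Its level was 16.9 FPKM in cell 14, 9.02 in cell 11 and 1.05 in cell 5, with a median of 0.0633 and a lowest value of 0 over the 28 cells. The 2 highest cells were the 2 led by astrocyte markers, and the value of cell 5 lay just past the level for a call. In the other 25 cells it was at most 0.583 FPKM. Of the 19783 genes, 14.2% were found in both cells 11 and 14, and how many were highest there was not counted. The pools had 0.667, 0.408, 0.0451 and 3.29 FPKM in pools 1 to 4, so Egfr was found in pool 4 alone. Pool 4 had 14 of 14 astrocyte markers, with a mean of 6.97 for that list. It also had the most transit-amplifying markers of the pools, 4 of 8, with a mean of 1.76. Of that list cell 14 had 2 of 8 markers, with a mean of 1.65, and cell 11 had 0 of 8, with a mean of 0.105. Cell 14 also had 4 of 13 neuroblast markers, with a mean of 1.52. The part of these lists in the Egfr values was not tested.

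Erbb2 and Erbb3 encode partners of other EGF family receptors: ErbB2 has no known ligand of its own, and ErbB3 binds neuregulins but has a weak kinase and signals through a partner. Erbb2 (chromosome 11, 98412470 to 98437716) was at 3.73 FPKM in cell 6 and 1.81 in cell 10 and listed at 0 in 25 cells. It overlaps the coding gene Mien1, and it reached at most 0.724 FPKM in a pool. Erbb3 (chromosome 10, 128567523 to 128589652) was at 6.03, 3.35 and 10.96 FPKM in cells 4, 12 and 13. These are the 3 cells led by oligodendrocyte markers, and in no other cell did Erbb3 pass 0.0438 FPKM. The pattern of all 3 of these cells and no other was shared by 62 of the 19783 genes (0.313%). The pools had 10.3, 1.05, 0 and 2.54 FPKM of Erbb3, and oligodendrocyte markers had means of 8.84, 6.53, 1.33 and 9.36 in pools 1 to 4. Pool 3, the pool with the lowest oligodendrocyte mean, was the pool where Erbb3 was listed at 0.

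The Erbb3 cells had no found Erbb2: it was listed at 0 in cells 4, 12 and 13. Erbb4, the neuregulin receptor with a full kinase, was at 6.15 FPKM in cell 4, which had Erbb3, and at 2.19 in cell 14, which did not. Cells 13 and 12 had 0.916 and 0.166 FPKM of it. Erbb4 is named here after its values were seen.

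**Figure D2:**
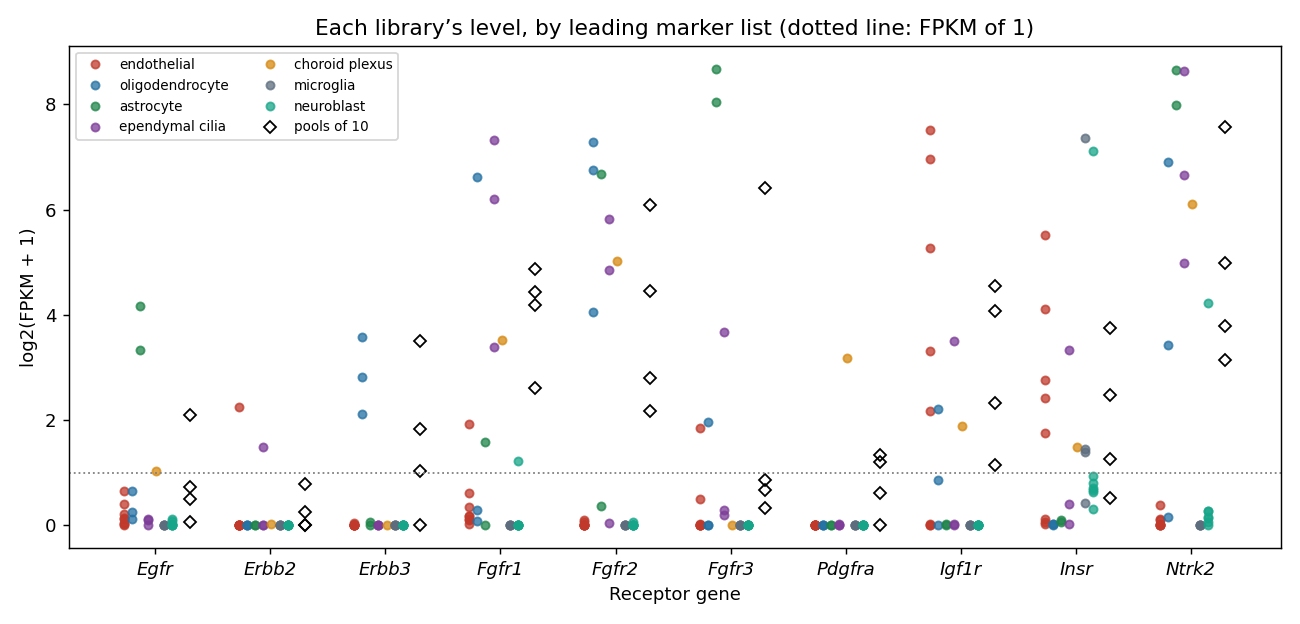
Level of each receptor in log2(FPKM + 1) for every library, with cells coloured by leading marker list (filled circles) and pools as open diamonds. The dotted line is FPKM of 1. The points of Insr in cells led by neuroblast markers lie under it, from 0.239 to 0.913 FPKM, apart from cell 25.

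Fgfr1 encodes an FGF receptor of stem cells, neurons and glia (chromosome 8, 25513654 to 25575714). It was found in all 3 cells led by ependymal cilia markers, at 159, 9.52 and 72.3 FPKM in cells 9, 10 and 15. Cell 12 had 97.2 FPKM, while cells 4 and 13, also led by oligodendrocyte markers, had 0.065 and 0.226. The other cells with Fgfr1 were cell 5 at 10.5, cell 6 at 2.79, cell 11 at 1.98 and cell 23 at 1.33 FPKM. Cell 12 stood apart from the other oligodendrocyte-led cells in markers too: it had 9 of 14 astrocyte markers, with a mean of 3.83 for that list. Cells 9, 10 and 15 had 10, 8 and 9 of 14 astrocyte markers, with means of 4.20, 2.83 and 4.29 beside 6.60, 3.80 and 6.73 for ependymal cilia markers. The part of these markers in the Fgfr1, Fgfr3 and Ntrk2 values of the 4 cells was not tested.

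Fgfr2 encodes an FGF receptor of the oligodendrocyte lineage and of epithelia. It was at 155, 106 and 15.7 FPKM in the oligodendrocyte-led cells 13, 4 and 12, at 102 in cell 11, 55.7 in cell 15, 31.5 in cell 5 and 27.8 in cell 10. Every other cell was at or under 0.295 FPKM, the value of cell 14, so cells 11 and 14 were on opposite sides of the range. The annotated extent of Fgfr2 (chromosome 7, 130162451 to 133123350) spans 30 other coding genes in GENCODE M21, and how reads of those genes were assigned is not given in the sources used here.

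Fgfr3 encodes an FGF receptor known from astrocytes and radial glia (chromosome 5, 33721724 to 33737068). It was at 408 FPKM in cell 11 and 263 in cell 14, the cells led by astrocyte markers, against 11.8 in cell 15, 2.91 in cell 12, 2.61 in cell 16 and at most 0.42 elsewhere. How many of all genes had their 2 highest values in the 2 astrocyte-led cells was not counted. In the pools it was at 0.604, 0.806, 0.26 and 83.8 FPKM, and pool 4 was again the pool with the most astrocyte markers. The FGF receptor with the highest value differed between cells. Fgfr3 was highest of the 3 in cells 11 and 14, Fgfr2 in cells 4, 5, 10 and 13, and Fgfr1 in cells 9, 12 and 15. Only the Fgfr3 cells matched a marker list. The oligodendrocyte-led cells 4, 12 and 13 were split between Fgfr2 and Fgfr1, as were the ependymal-led cells 9, 10 and 15. All 3 FGF receptors were found together in 3 cells, 11, 12 and 15.

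Ntrk2 encodes TrkB, the receptor of BDNF and neurotrophin 4; in astrocytes it is known mainly as a truncated form without the kinase, and the table gives 1 value for the gene with no split by form (chromosome 13, 58806596 to 59133970). Ntrk2 had the highest median among cells where it was found, 99.7 FPKM. It was at 400.3 and 252 FPKM in cells 14 and 11, at 395, 99.7 and 30.5 in cells 15, 10 and 9, at 119 and 9.82 in cells 12 and 4, at 67.5 in cell 5 and at 17.7 in cell 26. Of the 9 cells led by astrocyte, ependymal cilia, oligodendrocyte or choroid plexus markers it was found in 8, all but cell 13. In the 8 endothelial-led cells it reached at most 0.312 FPKM. How many of all genes part these cells from those 8 in this way was not counted. The pools had 30.6, 7.84, 12.9 and 189 FPKM.

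Pdgfra encodes PDGF receptor alpha (chromosome 5, 75152291 to 75198204). It was at 8.1 FPKM in cell 5, led by choroid plexus markers, and listed at 0 in 25 cells; the 2 remaining values were 0.0122 and 0.01. Cell 5 had 1 of 7 oligodendrocyte precursor markers and 4 of 10 mural markers. It also had 2 of 8 fibroblast markers, a list that includes Igf2, with a mean of 1.47, the highest of the 28 cells. Pools 1, 2 and 4 had 1.31, 0.533 and 1.52 FPKM, and pool 3 was listed at 0. The oligodendrocyte precursor list, with at most 3 of 7 markers in a cell, led no cell, and had 4, 5, 3 and 4 of 7 markers in pools 1 to 4. The fibroblast list had 2, 7, 2 and 2 of 8 markers in pools 1 to 4. The part of these lists in the Pdgfra values was not tested.

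Igf1r and Insr encode the receptors of IGF1 and insulin, which are close relatives and can pair with each other. Igf1r (chromosome 7, 67952859 to 68226780) was at 181, 123, 37.5, 8.9 and 3.52 FPKM in the endothelial-led cells 6, 17, 8, 7 and 2 and at most 0.0167 in the other 3 of them. Insr (chromosome 8, 3150922 to 3279617) was at 44.5, 16.4, 5.81, 4.39 and 2.39 FPKM in the endothelial-led cells 1, 16, 6, 3 and 2 and at most 0.0911 in the other 3. Of the 8 endothelial-led cells, 3 had Igf1r without Insr, 3 had Insr without Igf1r, and cells 2 and 6 had both. Each gene was found in 5 of these 8 cells. Whether the 2 were found apart more often than unrelated genes was not tested. Outside this group Igf1r was at 10.4 FPKM in cell 9, 3.63 in cell 13 and 2.69 in cell 5. Insr was at 9.02 FPKM in cell 9, at 1.8 in cell 5 and above 1 in 4 cells of the library sets, described next. Over all 28 cells, 4 had both, 4 Igf1r alone, 7 Insr alone and 13 neither. In the 17 cells outside the library sets these numbers were 4, 4, 3 and 6. Cell 3, with Insr alone, is the endothelial-led cell with 9 of 12 microglia markers. Insr was also found in cells 18 to 20, led by microglia markers, but under the 2% limit in cell 18 alone of these. It was at 138 FPKM in cell 25, led by neuroblast markers. The part of the microglia markers in the Insr value of cell 3 was not tested. Pools 2 and 3, led by endothelial markers, had 15.9 and 22.4 FPKM of Igf1r and 4.6 and 12.4 of Insr, above pools 1 and 4, which had 4.03 and 1.21 of Igf1r and 1.39 and 0.444 of Insr.

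**Figure D3:**
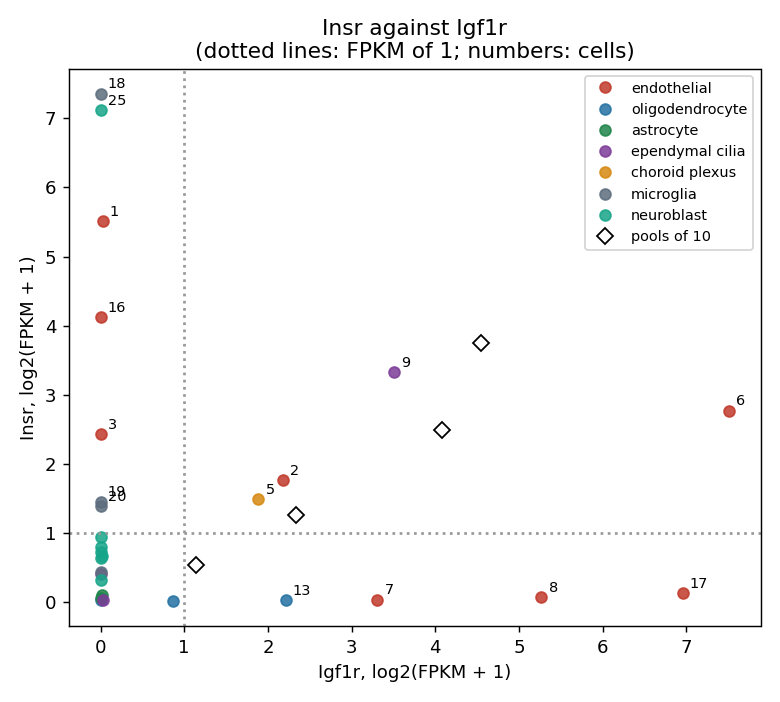
Insr against Igf1r, both in log2(FPKM + 1), with 1 circle per cell coloured by leading marker list and open diamonds for the pools; numbers name the cells and dotted lines mark FPKM of 1. Cells 7, 8 and 17 lie along the Igf1r axis and cells 1, 3 and 16 along the Insr axis, with cells 2 and 6 in between.

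In the 2 library sets Insr and Ntrk2 had the trait described above. Insr was at 163 FPKM in cell 18 and at 1.73, 1.61, 0.347 and 0.239 in cells 19 to 22, which is 0.147% to 1.06% of the value in cell 18. In the second set it was at 138 FPKM in cell 25 and at 0.559 to 0.913 in the other 5 cells, 0.405% to 0.661% of the highest. Ntrk2 was at 17.7 FPKM in cell 26 and at 0.0522 to 0.214 in the other 5 cells of that set, 0.295% to 1.21% of the highest. When each value below 2% of its set's maximum was replaced by 0, Insr was found in 9 cells in place of 11, since cells 19 and 20 left the count, and the counts of the other 9 receptors did not change. In cells 18 to 22 all other receptors were at or under 0.00986 FPKM.

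**Figure D4:**
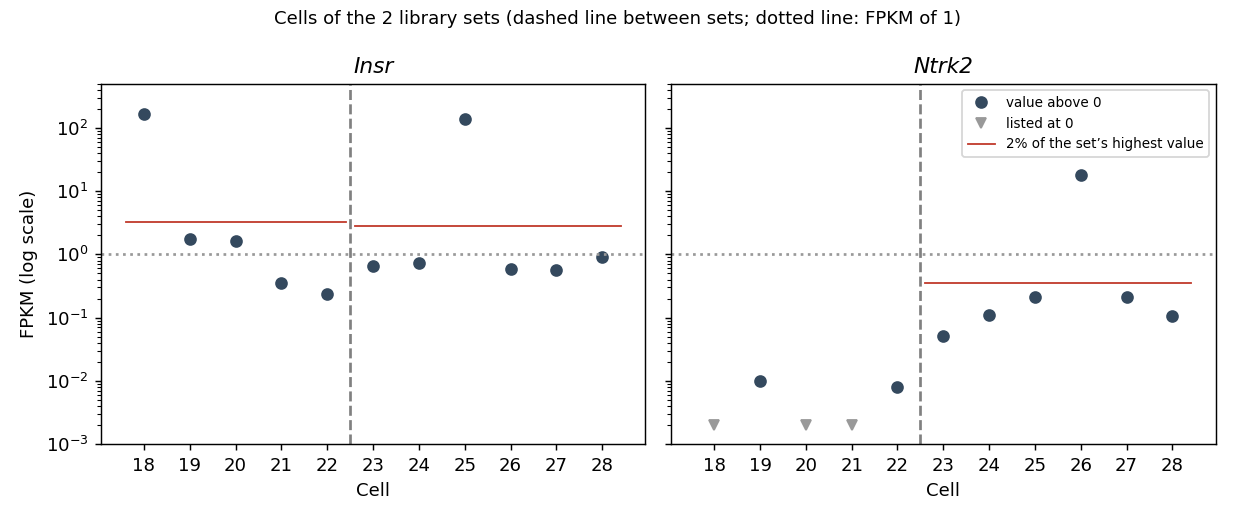
FPKM of Insr (left) and Ntrk2 (right) on a log scale in cells 18 to 28; the dashed line parts the 2 library sets, the dotted line is FPKM of 1, red lines are 2% of the highest value in the set, and grey triangles are values listed at 0, drawn at the foot of the axis. In each panel the low values of a set lie under the red line and 1 cell lies far above it, apart from Ntrk2 in cells 18 to 22, where no cell passed 0.00986 FPKM.

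The number of receptors found in a cell ran from 0 to 7. Cell 5 had 7, cells 11 and 12 had 5 each, and cells 6, 9, 10 and 15 had 4 each. The 17 cells outside the library sets had 1 to 7 and a median of 3, and the 11 cells within them had 0 or 1; over all 28 cells the median was 1. Cells with more genes found also had more receptors, with a Spearman rho of 0.784 and a Pearson r of 0.828 over the 28 cells, and 0.75 and 0.781 over the 17 cells outside the sets. Each pair of counts comes from the same library and shares its depth, so this is a description. Cells 5 and 12 had the most genes found of all cells, 10169 and 9079. No doublet caller was run, and whether these libraries, or cell 3 with its microglia markers, held more than 1 cell was not tested.

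Over the 28 cells Fgfr2 and Ntrk2 were the most alike of the 45 pairs of receptors, with a Spearman rho of 0.741, and over the 17 outside the sets they had 0.732. They were found together in 6 cells, 85.7% of the Fgfr2 cells and 66.7% of the Ntrk2 cells. Fgfr3 and Ntrk2 had 0.652 over the 28 cells and 0.752, the highest of the pairs, over the 17, with 4 cells in common, 80% of the Fgfr3 cells and 44.4% of the Ntrk2 cells. Erbb3 and Fgfr2 had 0.599 and 0.544, and all 3 Erbb3 cells had Fgfr2. Fgfr1 and Igf1r had 0.586 over 28 cells and 0.253 outside the sets. Within the sets Fgfr1 was found in cell 23 alone and Igf1r in no cell.

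The coding genes most alike to each receptor were taken among 8976 genes found in at least 4 cells, for the 6 receptors found in at least 4. For Fgfr2 they were Olig1, a transcription factor of the oligodendrocyte lineage, Pigs and Mgat3, with rho of 0.902, 0.895 and 0.889 over 28 cells and 0.851, 0.831 and 0.813 over the 17 outside the sets. For Ntrk2 they included Aldoc, the aldolase of astrocytes, and Ahi1, with 0.843 and 0.84 and, outside the sets, 0.868 and 0.932. For Fgfr3 they were Slc1a4, an amino acid transporter, Slc25a18, a mitochondrial glutamate carrier, and Sdc4, a heparan sulfate proteoglycan, with 0.877, 0.843 and 0.831 and, outside the sets, 0.842, 0.74 and 0.784. For Fgfr1 they included Lactb2 and Plekhb2 at 0.839 and 0.826, with 0.667 and 0.591 outside the sets. For Igf1r they were Gm20459, Tns1 and Sgms1 at 0.8, 0.788 and 0.772 and, outside the sets, 0.732, 0.645 and 0.65. Insr had the lowest values of the 6, with Itpripl1 highest at 0.611 and, outside the sets, 0.5. The points share libraries and depth, and many are at or near 0.

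The pools were then set beside the single cells. Per gene, the mean FPKM over the pools was divided by that over the cells, after adding 1 to each, and given as log2, so that differences of genes near 0 come out too small. Erbb3 was the 1 receptor with a ratio of at least 1, at 1.37 (SD over pools 1.48, n = 4), where 12.9% of the 19783 genes tested were. Insr was the 1 receptor at -1 or below, at -1.40 (SD 1.4), where 13.9% of genes were. A share of 1 in 10 is near the background in both directions. The median over the receptors was 0.15, beside 0.064 over all genes. Without pool 1 the Erbb3 ratio was 0.34. The mean of Insr over cells rested on cells 18 and 25, and against the 17 cells outside the library sets its ratio was -0.071. By means of log values the Insr ratio was 0.43, where the median of all genes was 0.95. Under upper quartile scaling, where that median was -2.94, the Insr and Erbb3 ratios were -9.45 and 0.25. That scaling divides each library by its upper quartile, which was 0.0125 FPKM in cell 18 and 10.2 to 15.5 in the pools. It thus raised the values of cell 18, the cell with the most Insr, far more than those of the pools.

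**Figure D5:**
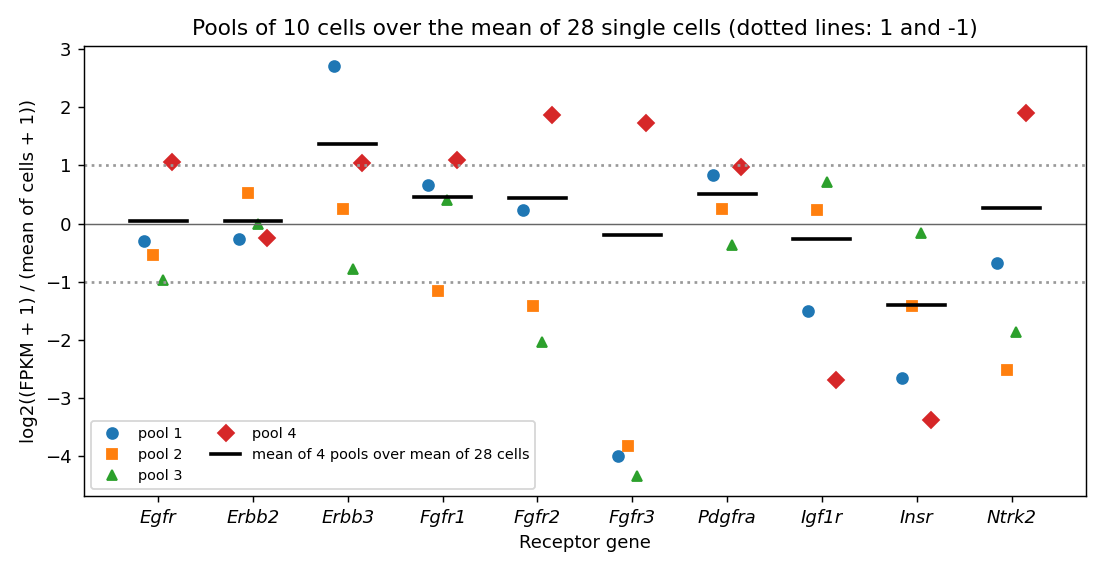
Level of each receptor in each pool over the mean of the 28 cells, on the log2 scale after adding 1 FPKM; symbols are the 4 pools, black bars the mean of the 4 pools, and dotted lines mark 1 and -1. Fgfr3 lies at 1.73 in pool 4 and between -4.35 and -3.83 in the other 3 pools.

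Among the pools, 4 receptors were found in all 4 libraries: Fgfr1 at 20.6, 5.09, 17.1 and 28.3 FPKM in pools 1 to 4, Fgfr2 at 21.0, 5.99, 3.53 and 67.1, and Igf1r and Ntrk2 as given above. Fgfr2, Fgfr3, Egfr and Ntrk2 each had their highest value in pool 4, and Igf1r and Insr in pool 3. In these bulk libraries, fewer cells of a kind and less RNA per cell cannot be told apart. Without pool 4 the ratios of Fgfr3 and Ntrk2 were -4.04 and -1.49, against -0.19 and 0.27 with it.

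Further receptors of the same families were scarce. Of 11, 5 were found in no cell, among them Fgfr4, Insrr, Ntrk3 and Klb. The 3 with the highest mean over the 32 libraries were Kl, Pdgfrb and Fgfrl1. Kl, a co-receptor of FGF23, was at 83.3 FPKM in cell 5 and at 52.5 and 19.2 in pools 1 and 4, and it is also in the choroid plexus marker list. Pdgfrb, the PDGF receptor of mural cells, was at 75.4 FPKM in cell 11, under 0.259 in all other cells, and at 10.4, 13.4, 0.0102 and 9.61 in pools 1 to 4. Fgfrl1, an FGF receptor without a kinase, was found in cells 10, 12, 11 and 5, with 31.8 FPKM in the highest.

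Ligands of the EGF receptor were found in cells with and without Egfr. Of 11 EGF and neuregulin ligands, 7 were found in no cell, among them Areg, Ereg, Btc, Nrg1, Nrg2 and Nrg3. Tgfa was found in 10 cells, with 92.3 FPKM in the oligodendrocyte-led cell 13 and 76.2 and 74.0 in the endothelial-led cells 2 and 7. Hbegf was found in 6 cells, highest in cells 17, 6 and 11 at 358, 66.2 and 20.8 FPKM, and Nrg4 in 7. Of 16 FGF genes, 9 were found in no cell, and Fgf2 was listed at 0 in all 32 libraries. Fgf1 was at 85.4, 54.8 and 7.32 FPKM in cells 13, 11 and 4, Fgf7 at 217 in cell 15 and Fgf13, which stays inside the cell, at 82.9 in cell 11.

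All 4 PDGF ligand genes were found. Pdgfa, a ligand of PDGF receptor alpha, was found in 11 cells, with 676, 449 and 260.5 FPKM in cells 13, 15 and 9. Pdgfb, the ligand that draws mural cells to vessels, was found in 9 cells, with 539, 368 and 365 FPKM in the endothelial-led cells 8, 3 and 6, and Pdgfd in 7. The pools had 168, 52.7, 40.2 and 221 FPKM of Pdgfa and 11.1, 185, 195 and 0.0659 of Pdgfb, so the pools high in one were low in the other.

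Of 9 IGF ligands and binding proteins, Igfbp7, a secreted protein of vessels, was found in 8 cells, with 1512, 1346 and 862 FPKM in the endothelial-led cells 3, 2 and 6. Igf2 was at 1246 FPKM in cell 5 and at most 33.5 in other cells, and at 346, 129, 4.32 and 281 in pools 1 to 4. Igfbp5 was found in 10 cells, 8 under the 2% limit, with 562 and 298 FPKM in cells 23 and 24. Of the neurotrophin genes, Bdnf and Ntf3 were found in no cell, and Bdnf reached at most 0.0378 FPKM in any library. Ntf3 was at 12.9 FPKM in pool 1 and listed at 0 in the other 3 pools. Ntf5 was at 1.01 FPKM in cell 23, and Sort1, which encodes the sorting receptor sortilin, was found in 8 cells, with 84.5 and 67.4 FPKM in cells 12 and 13.

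Genes that carry the signal inside the cell were found more widely, by values as deposited. Of 22 adaptor and RAS pathway genes 3 were found in no cell, Shc2, Shc3 and Irs1, and the median gene was found in 10 cells. Map2k2, Hras and Mapk3 had the highest means over the cells, and each was highest in a cell of a library set: 1756 FPKM of Map2k2 in cell 27, 1409 of Hras in cell 19 and 516 of Mapk3 in cell 18. Under the 2% limit they were found in 16, 7 and 12 cells in place of 21, 10 and 15. Of 12 PI3K and AKT genes Pik3cb was found in no cell, and the median gene was found in 9.5. Pik3r2 and Akt1 were highest in cell 21, at 998 and 433 FPKM, and Akt2 in cell 23 at 404. Under the 2% limit Pik3r2, Akt2 and Akt1 were found in 7, 10 and 16 cells in place of 11, 14 and 19. The medians of 10 and 9.5 cells were not made under that limit.

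Of 23 feedback inhibitors and targets of these receptors, Spry3, Spry4 and Dusp4 were found in no cell. Egr1, an immediate early gene, was found in 24 cells, 20 under the 2% limit, with 2153, 2056 and 1872 FPKM in cells 19, 18 and 22. Dusp6, a phosphatase that acts on ERK, was found in 12 cells, 11 under the limit, with 1605 and 897 FPKM in cells 20 and 18. Grb14, an adaptor that inhibits the insulin receptor, was at 1065 and 287 FPKM in the oligodendrocyte-led cells 4 and 13 and at 221 in the endothelial-led cell 3. Insr was at 0.0233 and 0.0168 FPKM in cells 4 and 13 and at 4.39 in cell 3. Grb14 was also at 160, 172 and 72.5 FPKM in cells 1, 2 and 16, where Insr was at 44.5, 2.39 and 16.4, so Grb14 was found both with and without Insr. In the pools, 1 of the 21 tested genes of this list was past 1 and 3 were past -1, again beside 12.9% and 13.9% of all genes.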

How the data were processed

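The authors deposited 1 table of FPKM per gene and library. Per the submitters' processing notes, TopHat 1.41, Cufflinks 2.02 and build mm9 were used, but 96.0% of the 39011 lines carry a GENCODE M21 gene ID and 99.7% of those overlap that gene in GRCm38, so coordinates are given as GRCm38. How the reads were laid out, the strand and the annotation's release were not given in the sources used here. Rows with 1 symbol were summed, and 27 symbols turned into dates were restored by gene ID. No 2 libraries held identical values.

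The receptors, gene lists and alternatives were chosen with earlier results of these data known. Marker and pathway lists held 240 entries, all matched, 2 of them by synonym. Libraries were joined into a set where genes of at least 500 FPKM in one and under 5% of that in the other were above 0 in at least 90% of cases, a limit set after the values were seen. Depth was read from 2342 genes of 1 exon of at least 800 bp, less an assumed fragment of 200 bp. It was taken as clear where at least 30 genes shared 1 value. All receptors were described, and other genes, apart from Erbb4, were named by rule: the 3 highest means per list (over the 32 libraries for the further receptors, over the 28 cells for the other lists), and the 3 highest Spearman correlations per receptor found in at least 4 cells, of which some are not reported here. Of the 50-base words of each receptor's longest coding transcript, at most 8.82% (Fgfr3) also occur in transcripts of another gene. The code for ratios, correlations and sets was run on these values shuffled within genes, with changes planted in them. That is a check of the code only and says nothing on how sound the results are. Python 3.11.15, pandas 2.3.3, NumPy 2.4.6, SciPy 1.17.1 and matplotlib 3.10.9 were used.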

Additional observations from a re-analysis of the deposited data

Results flagged for a closer look

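Fgfr3 was at 83.8 FPKM in pool 4, and the gap between this pool and the next highest was 0.914 of the whole range of the 4 pools on the log2(FPKM + 1) scale, above Dixon's 95% critical value for 4 values. The other 3 pools had 0.26 to 0.806 FPKM. Chance gives such a gap in about 1 of 20 groups, and 10 receptors were looked at.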

How the results depend on the processing

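No paired analysis was possible because cells and pools share only running numbers and no test was made. By means of log values, the median receptor ratio was 1.22 in place of 0.15, 6 receptors were past 1 and 0 past -1, the Insr ratio turned to 0.43, and the median of all genes was 0.95. Under upper quartile scaling the median was -2.44, with 0 receptors past 1 and 7 past -1, and the median of all genes was -2.94. The upper quartile was 0.00791 to 10.5 FPKM in the cells and 10.2 to 15.5 in the pools, so cells with a low quartile were scaled up most. With a pseudocount of 0.1 FPKM 2 receptors were past 1. Leaving out 1 pool in turn gave a median of -0.25 to 0.39, 0 to 1 receptors past 1 and 1 to 3 past -1; the lowest median and the count of 3 came without pool 4, and the count of 0 without pool 1. Without the cells of the library sets, or without cells of under 2500 genes, 0 receptors were past -1. With any value above 0 counted as found, the median receptor was found in 12.5 cells and the median cell had 5 receptors; outside the library sets the median cell had 3. The cause of these shifts was not tested. Of 80 alternative shares of cells for single receptors, 73 stayed within the interval of the main share. Many of these could not change. Each receptor had 1 row, so taking the highest row of a symbol in place of the sum altered nothing. The limits of 1%, 2% and 5% in the library sets changed the count of Insr only. The count of 73 therefore says little about how stable the shares are. The alternatives of 1% and 5% were added after the data were seen and gave 10 and 9 cells with Insr. In the 14 libraries with no clear step the depth is unknown, so the precision of values near FPKM of 1 is unknown there too.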
